A study of Apis mellifera with 2 samples.

Results

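The opsin-rich nuclei are the 350 nuclei of the BRC library in which the largest share of RNA came from opsin genes. They were chosen by the summed UMIs (unique molecular identifiers, each marking 1 captured RNA molecule) of Lop1, Lop2, Blop and UVop over the total UMIs of a nucleus, among the 19945 of 20000 BRC barcodes with 200 to 5000 genes, and they are set against the other 19595. The 2 libraries of the series together list 40000 barcodes.

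The BRC library came from brains of foragers whose colonies were sprayed with bromocriptine, which activates dopamine receptors of the D2 type, and the ddH2O library from brains of foragers sprayed with the solvent water alone. Sample titles describe the bees as fed, while the treatment field and the paper describe a spray. Each library was a pool of brains, the labels and the paper differ on how many, and there was 1 library per condition. Compound eyes and ocelli, which carry the photoreceptors, were taken off during dissection according to the labels.

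Insect photoreceptors catch light with opsins, receptor proteins that carry a retinal chromophore and sit in the densely folded membrane of the rhabdomere. An activated opsin starts a G protein and phospholipase C cascade that opens TRP cation channels, and the cell then releases histamine onto lamina and medulla neurons. In the honeybee compound eye each photoreceptor is known mainly for 1 of 3 opsins: Lop1 for green, Blop for blue and UVop for ultraviolet light, whereas Lop2 is the long-wavelength opsin of the ocelli.

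The BRC library held 76531513 UMIs with a median of 2109 per barcode, and the ddH2O library 77047419 UMIs with a median of 3327. Of all barcodes, 120 were listed in both libraries, 4 of them opsin-rich. Opsin UMIs reached 1056 CPM (UMIs of a gene per 1000000 UMIs in all; 95% Poisson interval 1048 to 1063) over the BRC barcodes and 22.5 CPM (21.5 to 23.6) over the ddH2O barcodes. All intervals here are 95% intervals that cover counting error only. With 1 library a condition no difference between libraries has a replicate check, and preparation, dissection and treatment cannot be told apart.

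The opsin share of the 350 nuclei was lowest at 0.780%, had a median of 1.16% and was highest at 9.56%, against 0%, 0.0874% and 0.780% in the other nuclei. In UMIs, the opsin-rich nuclei held 9 to 425 opsin UMIs with a median of 32, and the other nuclei 0 to 90 with a median of 2. These values chose the nuclei and are a description. The last nucleus inside had 10 opsin UMIs of 1282, a share of 0.780% with an exact binomial interval of 0.375% to 1.43%, and the first nucleus outside had 9 of 1154, also 0.780%. The share declined without a gap, to 0.630% at rank 500, 0.458% at rank 1000 and 0.325% at rank 2000. The interval of 165 of the 350 opsin-rich nuclei reached below the last share inside, and that of 1184 of the other nuclei reached it, so membership near rank 350 was not settled by the counts.

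**Figure D1:**
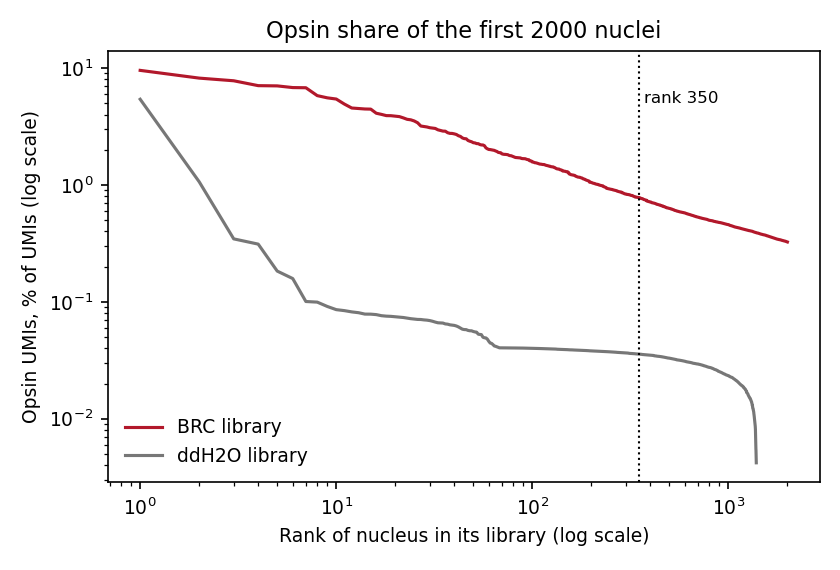
Share of opsin UMIs in percent of a nucleus's UMIs (log scale) against the rank of the nucleus in its library (log scale) for the first 2000 nuclei; the red line is BRC, the grey line ddH2O, and the dotted line marks rank 350. The BRC curve runs without a break through 0.780% at rank 350, and 2 ddH2O nuclei lie at or above that share.

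Nearly all of the opsin RNA in these nuclei was Lop1. Lop1 gave 15214 of their opsin UMIs, 95.7% (95.4% to 96.0%), against 57948 UMIs or 90.2% in the other nuclei. Per nucleus, Lop1 UMIs ran over 6, 31 and 411 in the opsin-rich nuclei (lowest, median and highest) and over 0, 2 and 90 in the other nuclei. Its level over the summed UMIs was 14446 CPM in the opsin-rich nuclei and 793.8 CPM in the other nuclei, an 18.2-fold difference that the choice of nuclei fixes.

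Blop and UVop were minor parts of the opsin RNA. Blop, the blue opsin, had 402 UMIs or 382 CPM (345 to 421) in the opsin-rich nuclei and 2661 UMIs or 36.5 CPM (35.1 to 37.9) in the other nuclei. UVop had 274 UMIs or 260 CPM (230.3 to 293) in the opsin-rich nuclei and 3068 UMIs or 42.0 CPM (40.5 to 43.5) in the other nuclei. Both genes entered the ranking, so these levels are descriptions. Blop had 1158 CPM at ranks 1 to 50, 248 CPM (210 to 290) at 151 to 350 and, just outside, 276 CPM (243 to 313) at 351 to 700. For UVop these levels were 655 CPM, 175 CPM (144 to 212) and 152 CPM (128 to 181). As a part of all opsin UMIs, both were smaller in the opsin-rich nuclei: Blop took 2.53% (2.29% to 2.78%) against 4.14% (3.99% to 4.30%), and UVop 1.72% (1.53% to 1.94%) against 4.78% (4.61% to 4.94%).

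The ocellar opsin Lop2 did not share in the enrichment, although it was counted in the ranking. It had 9 UMIs or 8.55 CPM (3.91 to 16.2) in the opsin-rich nuclei and 560 UMIs or 7.67 CPM (7.05 to 8.33) in the other nuclei, a log2 ratio of 0.16 (-0.98 to 1.09) whose interval spans both directions. The 2 long-wavelength opsins are neighbours on linkage group 15 of Amel_HAv3.1, Lop1 at 7414822 to 7417248 and Lop2 at 7417495 to 7419329, with 246 bases between them. Blop lies on linkage group 14 at 10150063 to 10152653 and UVop on linkage group 10 at 348052 to 351075.

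Nucleus by nucleus, Lop1 made up at least 80% of the opsin UMIs in 344 of the 350 opsin-rich nuclei (98.3%). No opsin-rich nucleus was led in this way by Blop, UVop or Lop2. All 4 opsins entered the ranking and Lop1 gives most opsin UMIs of the library, so these counts are largely set by the rule and are a description. The remaining 6 were mixed. In 1 of them Lop1 had 22 and Blop 23 UMIs, in another Lop1 had 6 and Blop 10, and in 1 more Lop1 had 21 and Blop 13. Lop1 was the only opsin with a UMI in 134 of the opsin-rich nuclei, and 96 held UMIs of both Blop and UVop.

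Of the 116 BRC nuclei with at least 5 Blop UMIs 15 were opsin-rich (12.9%), and of the 82 with at least 5 UVop UMIs 8 (9.76%). For Lop1 it was 350 of 3589 (9.75%), and of the 33 with at least 5 Lop2 UMIs none. Over all ranked nuclei the share is 1.75%. Median depths were 3049 UMIs for the Blop nuclei, 3847 for UVop, 2868 for Lop1 and 4638 for Lop2, where no nucleus held more than 15 Lop2 UMIs. Those 33 nuclei had 1567 CPM of Lop2, 608 CPM of Lop1 and 1722 CPM of trp. The threshold of 5 UMIs for these counts was chosen after the values were seen. All 4 opsins enter the ranking, so a nucleus with 5 UMIs of any of them already holds part of what is ranked. The shares are descriptions.

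**Figure D2:**
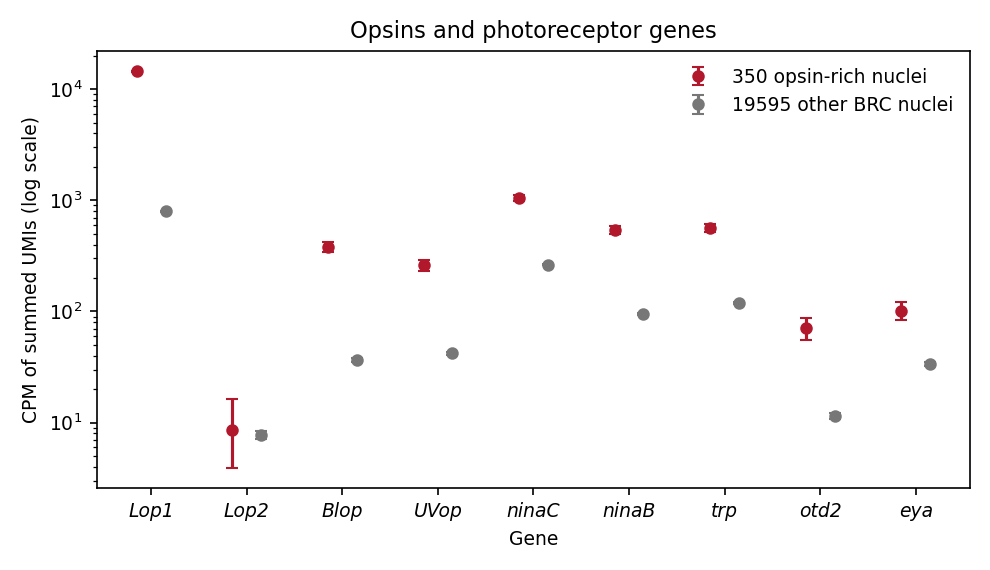
CPM of summed UMIs (log scale) of the 4 opsins and of ninaC, ninaB, trp, otd2 and eya in the 350 opsin-rich nuclei (red, left) and the 19595 other BRC nuclei (grey, right), with 95% Poisson intervals for counting error. Lop2 is the only gene whose intervals overlap, at 8.55 against 7.67 CPM.

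Opsin UMIs also occurred outside the opsin-rich nuclei, among them nuclei with UMIs of a glial marker. Free RNA can give such a background in droplet data, but the source of these UMIs was not tested. When 1000 UMIs were drawn from every nucleus, a depth all of them reached, Lop1 had a UMI in 100% of the opsin-rich nuclei, 59.2% of the other nuclei and 54.3% of 2317 other nuclei with at least 3 UMIs of repo, a transcription factor of glia. Without thinning these shares were 100%, 84.9% and 83.5%, at median depths of 2337, 2100 and 2260 UMIs. Thinned Blop shares were 26.0%, 4.19% and 4.06%, and thinned UVop shares 21.4%, 5.15% and 3.97%. Lop2 had a UMI in 0.571% of opsin-rich nuclei, 0.684% of other nuclei and 0.216% of repo nuclei, and its opsin-rich share rests on 2 UMIs.

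Photoreceptor genes outside the rule were also higher in the opsin-rich nuclei. Of the 27 phototransduction names listed, 3 could be matched to honeybee genes (ninaC, ninaB and trp), and all 3 were at least 2-fold higher, where 8.13% of all 10126 genes tested were. They come from the nuclei the opsins chose, so the ratios are descriptions without a test. The list's median log2 ratio was 2.23, against -0.18 over all genes tested. Of the opsin-rich nuclei 129 held UMIs of all 3 genes and 44 held none. The split was similar in the 350 nuclei ranked just below by opsin share, where 126 held all 3 and 53 held none. Of all 19595 other nuclei 1668 held all 3 and 12864 held none.

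trp, known in flies as the light-activated cation channel of the rhabdomere, had 561 CPM (517 to 608) in the opsin-rich nuclei and 120 CPM (117 to 122) in the other nuclei, a log2 ratio of 2.23 (2.10 to 2.35). ninaB, which in flies makes the retinal chromophore from carotenoids, had 539 CPM (496 to 586) in the opsin-rich nuclei and 95.5 CPM (93.2 to 97.7) in the other nuclei, a log2 ratio of 2.50 (2.37 to 2.62). Neither interval of levels in the opsin-rich nuclei met that in the other nuclei. ninaC, a myosin with a kinase domain in fly rhabdomeres, had 1054 CPM (993 to 1118) in the opsin-rich nuclei and 264 CPM (260.6 to 268) in the other nuclei, 3.99-fold, with a log2 interval of 1.91 to 2.08.

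The same 3 genes were also counted in the repo nuclei. Thinned to 1000 UMIs, trp had a UMI in 38.9% of opsin-rich nuclei, 10.8% of other nuclei and 5.22% of the repo nuclei. The shares were 38.3%, 10.2% and 9.54% for ninaB and 43.7%, 13.4% and 5.22% for ninaC. Any of the 3 genes was seen in 70.0% of thinned opsin-rich nuclei (64.9% to 74.8%), against 22.2% of other nuclei (21.7% to 22.8%) and 17.7% of repo nuclei (16.1% to 19.3%). At ranks 351 to 700 it was seen in 75.1% of nuclei (70.3% to 79.6%) and at ranks 701 to 2000 in 61.5% (58.8% to 64.1%). The 3 markers named photoreceptor-like were thus raised in the opsin-rich nuclei over the other nuclei as a whole, but were seen no more often than at ranks 351 to 700, and 105 of the 350 showed none of the 3 at this depth.

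A ranking by the non-opsin genes chose mostly other nuclei. The 350 BRC nuclei with the largest share of ninaC, ninaB and trp shared 19 nuclei with the opsin-rich set, 5.43% of each list of 350, where the opsin-rich set is 1.75% of all ranked nuclei. Those nuclei averaged 4268 CPM of ninaC and 2400 CPM of Lop1, against 1054 and 14446 CPM in the opsin-rich nuclei. Of these 350 nuclei 124 lay within the first 2000 of the 19945 ranks by opsin share, more than an even spread over the ranks would give.

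The opsin-rich nuclei were not uniform along the opsin ranking. Lop1 was 37255 CPM at ranks 1 to 50, 15751 at 51 to 150, 9203 at 151 to 350, 5829 at 351 to 700, 3738 at 701 to 2000 and 597 past 2000, which follows from the ranking itself. trp did not fall in step: it had 807, 587, 499, 511, 522 and 96.8 CPM over the same ranks. ninaB had 831, 623, 440 and, just past the opsin-rich nuclei, 530 and 462 CPM, then 73.4 CPM past rank 2000. ninaC was lowest among the first 2000 ranks at the very top, with 615 CPM at ranks 1 to 50, 1147 and 1096 CPM in the rest of the opsin-rich nuclei, and 1465 and 1515 CPM at ranks 351 to 700 and 701 to 2000. The intervals of ninaC in the opsin-rich nuclei, 485 to 769, 1030 to 1274 and 1016 to 1182 CPM, all lay below those at ranks 351 to 700 (1386 to 1548) and 701 to 2000 (1472 to 1559).

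**Figure D3:**
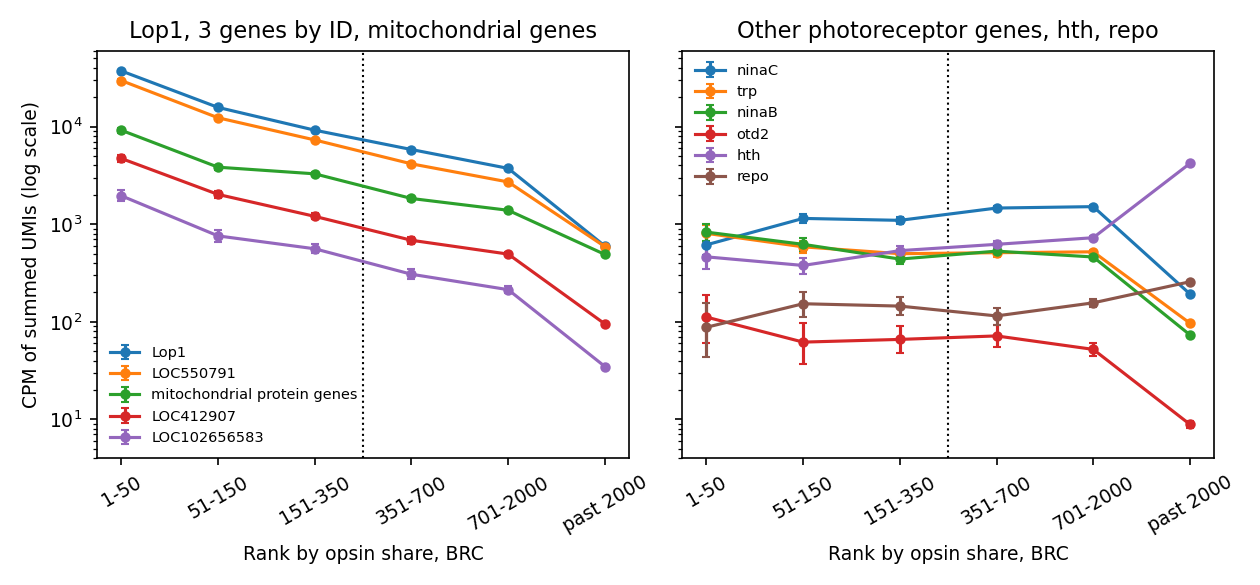
CPM of summed UMIs (log scale) by rank of opsin share in BRC, with 95% Poisson intervals for counting error and a dotted line after rank 350. Left, Lop1, 3 genes named by ID and the summed mitochondrial protein genes step down with rank; right, trp and ninaB stay between 440 and 831 CPM over the first 2000 ranks, ninaC between 615 and 1515 CPM, and hth is highest past rank 2000 at 4200.2 CPM.

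Transcription factors of photoreceptors were matched for 2 of 11 names, and both were at least 2-fold higher, against 8.13% of all genes tested. The names were otd2 and eya, and eya is also an optic lobe marker of the study. otd2, a honeybee relative of the fly head and photoreceptor factor orthodenticle, had 74 UMIs or 70.3 CPM (55.2 to 88.2) in the opsin-rich nuclei and 11.5 CPM (10.7 to 12.3) in the other nuclei, a log2 ratio of 2.61 (2.25 to 2.96). It was seen in 7.43% of thinned opsin-rich nuclei, 1.38% of other nuclei and 0.691% of repo nuclei. Ranks just below the opsin-rich nuclei had similar otd2 levels. These were 71.7 CPM (55.1 to 91.7) at ranks 351 to 700 and 52.2 CPM (44.4 to 60.8) at 701 to 2000. Past rank 2000 otd2 had 8.88 CPM. eya, in flies a cofactor needed to build the eye, had 102 CPM (83.3 to 123) in the opsin-rich nuclei and 33.7 CPM (32.4 to 35.0) in the other nuclei, a log2 ratio of 1.59. At equal depth its log2 ratio was 0.92, and its share of thinned nuclei was 9.43% in opsin-rich, 4.63% in other and 7.12% in repo nuclei.

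The histamine genes that could be matched, 3 of 9 names, gave no gene at least 2-fold higher and 1 lower. The names Hdc, CarT, BalaT, LOVIT, tan and ort were not matched, so their levels in these nuclei were not measured. Genes at least 2-fold lower were 15.4% of all tested. Vmat, the vesicular monoamine transporter, was the lower gene, with 78.8 CPM (62.8 to 97.7) in the opsin-rich nuclei and 518 CPM (513 to 523) in the other nuclei, a log2 ratio of -2.72. The value depended on the weight of deep nuclei: with 1000 UMIs per nucleus the log2 ratio was -0.81, and Vmat had a UMI in 8.86% of opsin-rich and 11.3% of other nuclei. ebony, which in fly glia joins histamine to beta-alanine, had 356 CPM in the opsin-rich nuclei and 472 CPM in the other nuclei. Hiscl1, a histamine-gated chloride channel, had 27 UMIs or 25.6 CPM (16.9 to 37.3) in the opsin-rich nuclei and 15.8 CPM (14.9 to 16.7) in the other nuclei.

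Of the synapse list 5 of 8 names matched, with 4 genes at least 2-fold higher (8.13% of all genes tested were) and a median log2 ratio of 1.14. Syt1, the calcium sensor of vesicle release, had 771 CPM in the opsin-rich nuclei and 232 CPM in the other nuclei, a log2 ratio of 1.74 that was 1.18 at equal depth. For nSyb, the vesicle SNARE, the log2 ratio was 1.23, and 0.68 at equal depth. For brp, a scaffold of the active zone, it was 1.11, and 0.60 at equal depth. For Cac, a subunit of voltage-gated calcium channels, it was 1.14, and 0.54 at equal depth. Syx1A, a SNARE of the plasma membrane, had 649 CPM in the opsin-rich nuclei and 726 CPM in the other nuclei. Thus only Syt1 among the 4 stayed past 2-fold when each nucleus had the same number of UMIs. These 4 genes were also raised in the ranks just below. At ranks 351 to 700 and 701 to 2000 Cac had 2717 and 2808 CPM, against 1917 CPM in the opsin-rich nuclei. For brp the levels were 1347 and 1344 CPM, against 1080 CPM. nSyb had 925 and 842 CPM, against 1175 CPM, and Syt1 628 and 566 CPM, against 771 CPM.

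Over all genes, 823 of 10126 with at least 100 UMIs were at least 2-fold higher in the opsin-rich nuclei (8.13%) and 1560 were at least 2-fold lower (15.4%). With the added condition that the counting interval of the ratio leaves out 1, the numbers were 740 (7.31%) and 1142 (11.3%). A gene at the 100-UMI minimum has 1.42 UMIs in the opsin-rich nuclei if its level is equal, 265 tested genes had none there, and 16 passed the minimum only with the opsin-rich UMIs. The opsin-rich set held few very deep nuclei: 1 of 350 lay above the 95th percentile of 14000 UMIs, against 945 of the other nuclei, and those 945 gave 30.2% of the UMIs of all other nuclei. With 1000 UMIs per nucleus 552 genes were higher and 1504 lower, and median-of-ratios scaling raised the share of higher calls to 46.2%, against 34.5%, with a shift of all log2 ratios by 0.15.

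**Figure D4:**
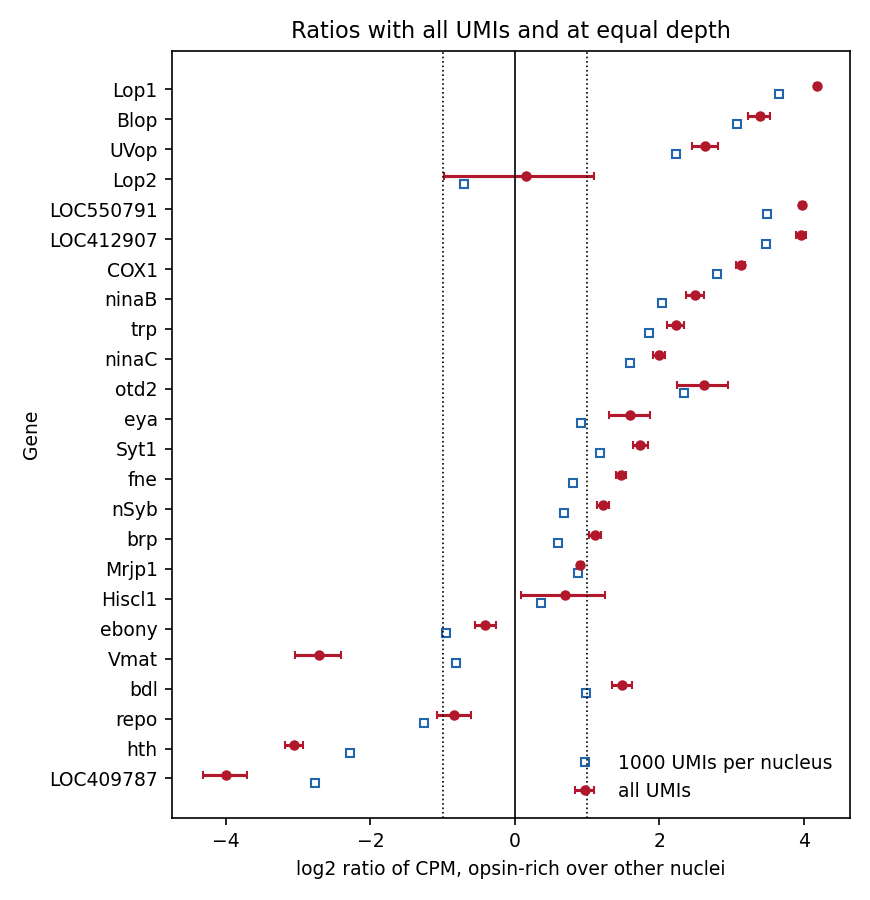
log2 ratio of CPM, opsin-rich over other BRC nuclei, for 24 genes; red points use all UMIs with 95% counting intervals, blue squares use 1000 UMIs per nucleus, and dotted lines mark 2-fold. The photoreceptor genes trp, ninaB, ninaC and otd2 lie past 2-fold both ways, while fne, nSyb, brp, eya, bdl and Vmat pass with all UMIs only.

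The genes with the largest ratios held, besides Lop1 and Blop, several that the reference lists without a name, and mitochondrial RNA. LOC550791 (linkage group 10, 9408686 to 9411243) had 12039 UMIs in the opsin-rich nuclei, with a level of 11431 CPM in the opsin-rich nuclei and 723 CPM in the other nuclei, a log2 ratio of 3.98 (3.95 to 4.01). It had a UMI in 99.7% of thinned opsin-rich nuclei, 56.1% of other nuclei and 53.3% of repo nuclei, close to the shares of Lop1. LOC102656583 (linkage group 4, 7600433 to 7602520) had 784 CPM in the opsin-rich nuclei and 45.7 CPM in the other nuclei, a log2 ratio of 4.10 (3.99 to 4.21). Its neighbour LOC724717, which starts after a gap of 161 bases, had 373 CPM in the opsin-rich nuclei and 37.3 CPM in the other nuclei. LOC412907 (linkage group 15, 5985153 to 5989339) had 1860 CPM in the opsin-rich nuclei and 119 CPM in the other nuclei, and LOC409816 (linkage group 15, 6216869 to 6217760) 623 and 53.1 CPM. The other genes of the 15 largest ratios by ID were LOC409096, LOC100217360 and LOC102654369, with log2 ratios of 3.06, 3.14 and 3.01.

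The proportion of several of these genes to Lop1 changed little over the first 2000 ranks. For every 100 Lop1 UMIs, LOC102656583 had 5.25 UMIs at ranks 1 to 50, 4.82 at 51 to 150, 6.09 at 151 to 350, 5.27 at 351 to 700, 5.71 at 701 to 2000 and 5.83 past 2000. For LOC412907 these values were 12.7, 12.8, 13.1, 11.7, 13.2 and 15.9. LOC550791 had 79.6, 78.3 and 79.4 UMIs per 100 Lop1 UMIs within the opsin-rich nuclei, 71.3 and 72.6 to rank 2000, and 98.7 past it. LOC409816 had 4.18, 3.93 and 4.74 within the opsin-rich nuclei and 7.49 past rank 2000. trp moved otherwise, with 2.17, 3.72 and 5.42 UMIs per 100 Lop1 UMIs within the opsin-rich nuclei, 8.76 and 14.0 to rank 2000, and 16.2 past it. ninaC had 1.65, 7.28 and 11.9 within the opsin-rich nuclei, 25.1 and 40.5 to rank 2000, and 32.3 past it. Over the 350 nuclei, which share 1 library, the Spearman correlation of the opsin share was 0.81 with the share of LOC550791, 0.55 with that of LOC412907 and 0.17 with that of ninaC, ninaB and trp together.

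Mitochondrial RNA was higher as well. The 13 mitochondrial protein genes made up 0.415% of the UMIs in the opsin-rich nuclei and 0.0545% in the other nuclei, a log2 ratio of 2.93 (2.88 to 2.97), and all 13 were at least 2-fold higher, against 8.13% of all genes tested. COX1, a subunit of the last complex of the respiratory chain, had 2133 CPM in the opsin-rich nuclei and 244 CPM in the other nuclei. ATP6, COX3 and ND1 were also among the 15 largest ratios, as was the ribosomal RNA KEF36_r02, at 4560 CPM in the opsin-rich nuclei and 447 CPM in the other nuclei. Along the ranking the share of the protein genes was 0.918% at ranks 1 to 50, 0.384% at 51 to 150, 0.329% at 151 to 350, 0.184% at 351 to 700, 0.139% at 701 to 2000 and 0.0490% past 2000. Per nucleus it ran over 0%, 0.317% and 3.46% in the opsin-rich nuclei (lowest, median, highest) and over 0%, 0.0490% and 3.98% in the other nuclei, and 28 of the opsin-rich nuclei reached 1%. When nuclei of 1% or more were left out before ranking, 322 of the 350 opsin-rich nuclei stayed, and the 350 then taken had 545 CPM of trp and 1099 CPM of ninaC. The part of mitochondrial RNA in the other results was not tested beyond this.

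**Figure D5:**
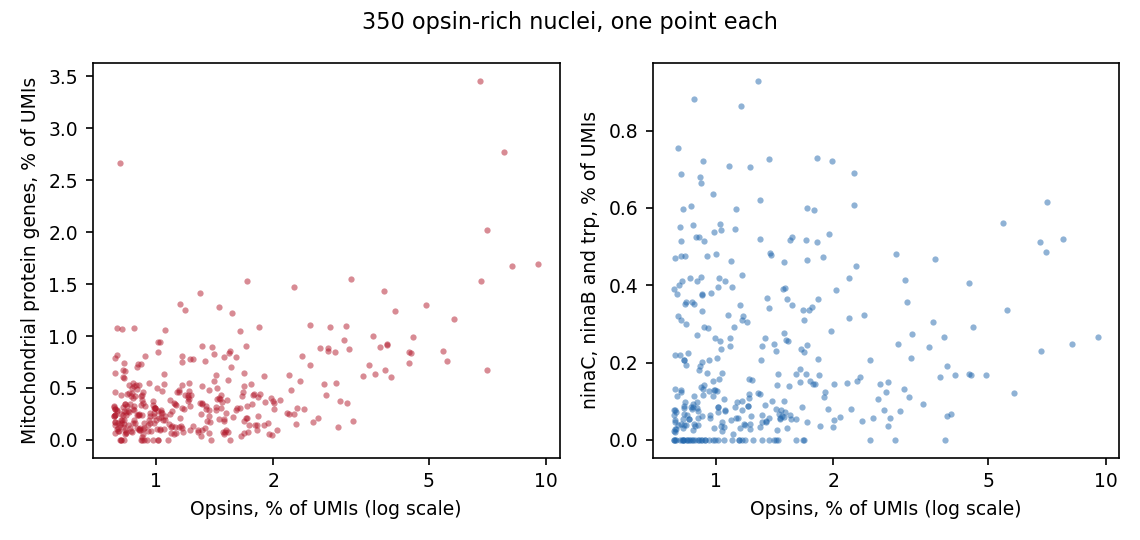
The 350 opsin-rich nuclei, 1 point each, with the opsin share of UMIs in percent (log scale) against the share of mitochondrial protein genes (left) and of ninaC, ninaB and trp together (right), both in percent. The highest mitochondrial share is 3.46%, and the Spearman correlations are 0.35 (left) and 0.17 (right).

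The genes with the smallest ratios were known by ID only. LOC409787 had 85.5 CPM in the opsin-rich nuclei and 1370 CPM in the other nuclei, a log2 ratio of -4.00 (-4.32 to -3.70), and LOC107965822 had 172 and 2381 CPM, a log2 ratio of -3.79. At equal depth the log2 ratios were -2.77 and -2.85. The other 6 of the 8 smallest, LOC102655870, LOC100578777, LOC413907, LOC102656658, LOC100577646 and LOC102653619, had log2 ratios of -3.98 to -3.29, and -2.62 to -1.35 at equal depth.

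Markers of other cell types were measured beside these results, and their part in them was not tested. The 3 neuron markers include nSyb and Syt1, which are also in the synapse list above. Together the 3 summed to 3563 CPM in the opsin-rich nuclei and 1317 CPM in the other nuclei. Their log2 ratio was 1.44 (1.39 to 1.48), and 0.83 at equal depth. fne, an RNA-binding protein of neurons, led them with 1616 CPM in the opsin-rich nuclei and 583 CPM in the other nuclei. At ranks 351 to 700 and 701 to 2000 fne had 1449 and 1349 CPM. The glial markers split: repo had 141 CPM in the opsin-rich nuclei and 251 CPM in the other nuclei, while bdl, a cell adhesion protein, had 417 CPM in the opsin-rich nuclei and 149 CPM in the other nuclei. At least 3 neuron marker UMIs were found in 87.7% of opsin-rich and 45.4% of other nuclei, at the depths given above. For at least 3 glial marker UMIs the shares were 21.1% and 16.7%. Both were found together in 64 opsin-rich nuclei (18.3%) and in 839 other nuclei (4.28%), among them 33 (9.43%) at ranks 351 to 700. Whether they occurred together more often than their single shares give was not tested.

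The optic lobe list, 9 genes, summed to 923 CPM in the opsin-rich nuclei and 4677 CPM in the other nuclei, a log2 ratio of -2.34 (-2.43 to -2.25), although its median gene was at 0.69. hth, the transcription factor homothorax, carried that sum, with 481 CPM (440.4 to 525) in the opsin-rich nuclei and 4009 CPM (3995 to 4024) in the other nuclei, a log2 ratio of -3.06 that was -2.29 at equal depth. It had a UMI in 25.7% of thinned opsin-rich nuclei and 55.1% of other nuclei. At ranks 351 to 2000 hth was also low, with 622 and 728 CPM.

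Of the remaining lists, taken as sums, those of surface glia, cortex glia and olfactory projection neurons were past 2-fold lower. That of fat body was past 2-fold higher, and the others lay within 2-fold, apart from Vmat above. The hypopharyngeal gland list, led by the royal jelly protein gene Mrjp1, summed to 12420 CPM in the opsin-rich nuclei and 9371 CPM in the other nuclei. Mrjp1 itself had 6820 CPM in the opsin-rich nuclei and 3645 CPM in the other nuclei, and a UMI in 97.1% and 92.2% of thinned nuclei. The Kenyon cell list, led by mub, had 6058 CPM in the opsin-rich nuclei and 5445 CPM in the other nuclei, the astrocyte list, led by GlnS, 939 and 679 CPM, and the ensheathing glia list, led by ebony, 643 and 609 CPM. These 3 log2 ratios, 0.15, 0.47 and 0.08, turned to -0.42, -0.07 and -0.39 at equal depth. The 2 ensheathing markers differed, with a log2 ratio of 1.07 (0.90 to 1.24) for ldgf4 and -0.41 for ebony. Surface glia markers, led by Tret1, a trehalose transporter, summed to 664 CPM in the opsin-rich nuclei and 1358 CPM in the other nuclei, a log2 ratio of -1.03. Cortex glia (zyd, 9 opsin-rich UMIs) stood at 8.55 and 19.4 CPM, olfactory projection neurons (led by oaz, 11 opsin-rich UMIs in all) at 10.4 and 28.7 CPM, cholinergic (VAChT) at 50.3 and 29.4 CPM, glutamatergic (VGlut) at 20.9 and 15.7 CPM and epithelial markers (grh) at 238 and 279.5 CPM, each with the opsin-rich nuclei before the other nuclei. The 2 olfactory markers split, with a log2 ratio of -2.25 for oaz and 1.55 (-0.09 to 2.82) for acj6, which had 5 opsin-rich UMIs. Fat body markers, led by Vg, were at 56.0 CPM in the opsin-rich nuclei and 26.4 CPM in the other nuclei, a log2 ratio of 1.08 that was 0.93 under the study's filters on nuclei. With the same filters the olfactory list's log2 ratio of -1.46 was -0.33, and the cortex glia list's -1.18 was -0.80 when 500 nuclei were taken.

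In the ddH2O library, which the rule did not use, 2 of 19999 nuclei with the same gene limits (0.0100%, interval 0.00121% to 0.0361%) reached the opsin share of the last opsin-rich BRC nucleus, against 350 of 19945 in BRC (1.75%, 1.58% to 1.95%). The first had 173 Lop1 and 3 Blop UMIs of 3253, with 129 UMIs of LOC550791, 38 of LOC412907, 16 of LOC409816 and 6 of trp. The second had 26 Lop1 UMIs and 1 UVop UMI of 2537, with 27 UMIs of LOC550791, 3 of LOC412907 and none of trp or ninaC. Both thus held Lop1 and LOC550791 side by side.

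Over whole libraries, Lop1 had 964 CPM in BRC and 11.9 CPM in ddH2O, Blop 40.2 and 1.75 CPM, UVop 44.2 and 8.61 CPM and Lop2 7.49 and 0.286 CPM. The other photoreceptor genes differed in the same direction, with 268 CPM of ninaC in BRC and 9.50 in ddH2O, 123 and 1.70 CPM of trp, and 99.1 and 11.2 CPM of ninaB. otd2 stood at 11.97 CPM in BRC and 11.1 CPM in ddH2O. The difference was spread over many nuclei: an opsin UMI was found in 87.4% of BRC and 6.94% of ddH2O nuclei. Within BRC the opsin-rich nuclei held 20.8% of the Lop1 UMIs. In bulk sums such as these, fewer cells of a type, less RNA per cell and free RNA cannot be told apart.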

How the data were processed

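The values deposited are UMI counts of each gene in each barcode, which the authors made with Cell Ranger 7.0.1 on Amel_HAv3.1 without normalization; the matrix headers name 7.2.0 for BRC and 7.0.1 for ddH2O. The library is 3' single-nucleus RNA, with 12635 features in BRC, of which 12245 matched the RefSeq gene table of the same assembly. The fewest UMIs per barcode were 1142 in BRC and 2475 in ddH2O.

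Members and gene lists were chosen with earlier results of these data known. UMIs were summed over nuclei and divided by the total (CPM, with exact Poisson intervals), exact conditional intervals for ratios and Clopper-Pearson intervals for shares (95%), in Python 3.11.15 with numpy 2.4.6 and scipy 1.17.1. A count of 0 stood at a floor of 3 UMIs. Nuclei of 1 library are not replicates, so no test was run. Genes named are the opsins, matched genes of the phototransduction, transcription factor and histamine lists, the 15 largest ratios (UMI in over 10% of opsin-rich nuclei), the 8 smallest (over 10% of other nuclei), and the leading gene of each marker list; names are those of the study's marker table or symbols. No name of the rhabdomere, pigment and lens, other opsin, muscle or pigment cell lists was matched. Doublets were not removed, and the removal with scDblFinder in the study was not repeated. The intervals were tested on simulated data. Alternatives were 200 or 500 nuclei, ranking by opsin UMIs or Lop1, the study's filters, the deepest nuclei left out, other scalings, thinning, other count minimums, log-normalized means and a leading opsin at 60%.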

Additional observations from a re-analysis of the deposited data

How the results depend on the processing

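No paired analysis was possible because each condition had 1 library and nuclei were compared within BRC. The 3 phototransduction genes stayed at least 2-fold higher under every alternative that recounted genes. The opsin share of 1.51% became 1.96% with 200 nuclei, 1.29% with 500, 0.904% when nuclei were ranked by opsin UMIs and 1.35% without nuclei of at least 1% mitochondrial UMIs, the last chosen after seeing the data. The overlap with the ranking by ninaC, ninaB and trp, 19 with 350 nuclei, was 8 with 200 nuclei and 39 with 500, out of 19945 ranked nuclei. With 200 nuclei, 199 were led by Lop1. Of genes 2-fold higher, 823, there were 548 when ranked by opsin UMIs, 508 under the study's filters and 534 without the deepest 5% of nuclei. With a minimum of 2000 UMIs, also chosen after seeing the data and testing fewer genes, there were 351. Other settings raised the number, to 937 with 200 nuclei and 852 with CPM without the opsins. It was 1084 both with median-of-ratios scaling and with no filter on low counts, which tests more genes. Of genes 2-fold lower, 1560, there were 1023 when ranked by opsin UMIs, 710 with 2000 UMIs and 1649 with 200 nuclei. Leaving out the 1 opsin-rich nucleus above the 95th percentile, again added later, gave 823 and 1574. Thinning, the study's filters and leaving out the deepest nuclei turned the sign for Lop2 (log2 ratios -0.70, -0.32 and -0.29), which was within 2-fold throughout. Of single-gene values under the alternatives, 188 stayed within the counting interval and 208 left it, and no ratio past 2-fold changed direction. Low counts limit most ratios of genes near the minimum.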
